A study of Mus musculus with 4 samples.

Results

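Rab GTPase mRNAs were taken as the transcripts of the protein-coding genes whose symbol is Rab followed by a number and at most 1 letter, in the GENCODE M21 annotation of the mouse genome (GRCm38/mm10). The rule found 59 Rab genes among 21951 protein-coding genes. A read cluster was assigned to a Rab gene when its centre lay in the gene span on the same strand.

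IGF2BP3 eCLIP-seq recovers RNA fragments crosslinked to IGF2BP3, an mRNA-binding protein, and compares them with RNA of the same lysate. All libraries came from whole testes of 8-week-old wild type C57BL/6 mice, labelled as germ cells and somatic cells together and given as C57BL/6J in the treatment text. Cells freed from both testes by mild grinding were exposed to UV light (254 nm, 400 mJ/cm2) 3 times to link RNA to protein. The 4 libraries form 2 replicates, each with 1 library of RNA precipitated with the IGF2BP3 antibody (IP) and 1 size-matched input library (SMInput) from lysate kept back before precipitation, with no antibody. Usable reads, as recovered from the listed values, numbered 5133438 in the IP and 8706391 in the SMInput of replicate 1, and 4637612 and 16696122 in replicate 2. The libraries hold no separate cell types, so that fewer cells of a type and less RNA per cell cannot be told apart in any Rab value given here.

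Rab proteins are small GTPases that mark the membranes of the cell and direct vesicles between them. A prenyl group anchors them to membranes, guanine nucleotide exchange factors (GEFs) load them with GTP, and GTPase-activating proteins (GAPs) switch them off. In the testis, Golgi-derived vesicles build the acrosome of spermatids, and vesicle transport also serves the growing flagellum and the Sertoli cells that surround the germ cells.

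Significant IGF2BP3 clusters on Rab mRNAs lay mainly in 3′ untranslated regions (3′UTRs) and recurred at the same bases in both replicates for 15 Rab genes. These were Rab2a, Rab2b, Rab6a and Rab18 of the Golgi and early secretory group, Rab8b and Rab10 of exocytosis, Rab5b, Rab5c and Rab22a of early endosomes, Rab11a and Rab14 of recycling, Rab7 of late endosomes, Rab23 and Rab28 of the cilium, and Rab40c. At their 27 shared sites the median odds ratio of IP to SMInput reads was 6.44 in replicate 1 and 8.23 in replicate 2. Rab mRNAs of lysosome-related organelles and the Rab3 genes of regulated secretion had no significant cluster in either replicate, although Rab29 and Rab3c had some in both when clusters were given to the closest annotated gene start, whatever its strand. By that rule only 9 Rab genes had overlapping significant clusters, 7 of them among the 15 named here.

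Of the 59 Rab genes, 45 had a listed cluster in either replicate, against 66.4% of all protein-coding genes. A cluster was called significant when its log2 fold change of IP over SMInput reads, each relative to the library, reached 2 and the −log10 of its P value reached 2. By this rule, 24 Rab genes had a significant cluster in replicate 1, beside 26.1% of all protein-coding genes, and 26 in replicate 2, beside 36.8%. Both replicates held a significant cluster for 21 Rab genes, or 35.6%, where the background was 21.9%. Significant clusters of the replicates shared at least 1 base for 15 Rab genes, or 25.4%, and for 9.33% of all protein-coding genes. Among genes with listed clusters in both replicates, overlapping significant clusters were found for 15 of 40 Rab genes, or 37.5%, and for 16.6% of all such genes. The Rab share was thus above the background on every count made over genes, by a narrower margin in replicate 2. These shares describe the Rab list and were not tested against other lists, and the Rab 3′UTRs were longer, with a median of 1952 annotated bases per gene against 950 for all protein-coding genes.

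Clusters gave a similar picture. Significant clusters numbered 73 of 898 listed Rab clusters in replicate 1, or 8.13%, against 4.91% over all protein-coding genes. In replicate 2 they numbered 121 of 567, or 21.3%, against 13.1%. Reads behind each cluster were compared again by a two-sided Fisher's exact test of IP and SMInput reads with Benjamini-Hochberg adjustment over all clusters of the replicate. By this test at an adjusted p below 0.05, 68 of 821 Rab clusters with recovered reads held more IP reads in replicate 1, beside 5.47% of all clusters, and 151 of 547 held more in replicate 2, beside 20.3%. Of the significant Rab clusters, 53 of 73 passed this adjusted threshold in replicate 1 and all 121 in replicate 2. The highest adjusted p of Fisher's exact test among them was 0.0904 in replicate 1 and 0.0483 in replicate 2. Before adjustment, clusters with these values had p of 0.00727 and 0.00978 by the same test. The adjustment is made within each replicate, so the adjusted values do not rank the support of calls between replicates.

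The significant Rab clusters were not unusually steep. Their median log2 fold change was 2.76 in replicate 1 and 3.04 in replicate 2, close to the 2.84 and 3.07 of all protein-coding genes. Their median −log10 P value was 3.55 and 3.63, where all genes had 3.12 and 2.71. The median number of IP reads per significant Rab cluster was 15 in replicate 1 and 10 in replicate 2, against 13 and 8 over all genes. Rab clusters thus differed from the background more in read number than in fold change.

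The 3′UTR held 55 of 73 significant Rab clusters in replicate 1, or 75.3% (exact 95% binomial interval 63.9% to 84.7%). In replicate 2 it held 77 of 121, or 63.6% (54.4% to 72.2%). Over all protein-coding genes the 3′UTR share was 44.8% in replicate 1 and 38% in replicate 2, below both Rab intervals. These intervals cover counting error only, and clusters of the same Rab gene are not independent. Rab clusters that did not pass the thresholds lay in the 3′UTR in 15.4% of cases in replicate 1 and 20.2% in replicate 2. Over all protein-coding genes these shares were 9.55% and 10.8%, so the Rab clusters that did not pass were above the background as well. Most of the remaining Rab clusters that did not pass lay in introns.

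Coding sequence (CDS) held 5 significant Rab clusters in replicate 1, or 6.85%, and 4 in replicate 2, or 3.31%. The shares over all genes were 29.4% and 21.1%. Rab coding regions are short, and per kilobase of annotated CDS the Rab genes had 0.117 and 0.0934 significant clusters against 0.131 and 0.161 over all genes. Per kilobase of 3′UTR they had 0.420 in replicate 1 and 0.588 in replicate 2, where all genes had 0.218 and 0.318. Per annotated length, Rab mRNAs therefore carried more significant clusters than the background in the 3′UTR in both replicates. The CDS values rest on 5 and 4 clusters and differ from the background by few. These lengths include genes without a listed cluster. A listed cluster in either replicate was found for 76.3% of Rab genes and 66.4% of all genes, and its part in the densities was not tested.

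**Figure D1:**
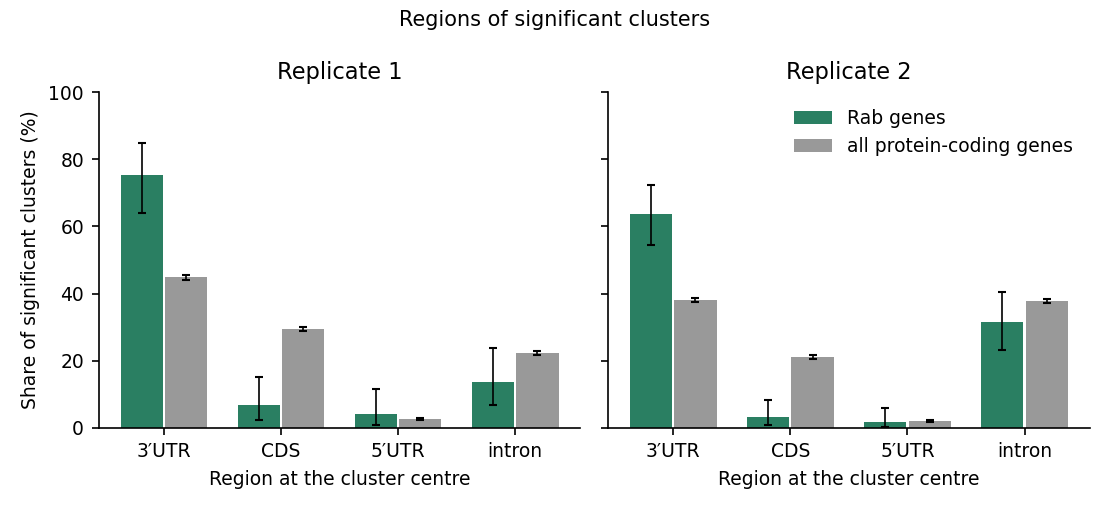
Share of significant clusters (percent) by the region at the cluster centre in each replicate, for Rab genes and for all protein-coding genes, with exact 95% binomial intervals. The 3′UTR bars of the Rab genes stand at 75.3% and 63.6%, above the 44.8% and 38% of all genes.

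Introns held 10 significant Rab clusters in replicate 1 and 38 in replicate 2, and these rested on few reads. Replicate 1 had a median of 8 IP reads in them and replicate 2 a median of 5, and 5 and 20 of them had a lone SMInput read. Among significant Rab clusters with 1 SMInput read, the fewest IP reads were 7 in replicate 1 and 4 in replicate 2. None of the intron clusters overlapped a significant cluster of the other replicate, and 1 from each replicate overlapped any listed cluster of the other. By contrast, 29 of 55 3′UTR clusters of replicate 1 and 32 of 77 of replicate 2 overlapped a significant cluster of the other replicate. Over all protein-coding genes, 45.7% of 3′UTR clusters of replicate 1 and 30.3% of replicate 2 overlapped in this way, and 3.5% and 1.22% of intron clusters. The Rab 3′UTR shares were 52.7% (38.8% to 66.3%) and 41.6% (30.4% to 53.4%), and the Rab intron intervals reached from 0% to 30.8% and 9.25%. The share of all genes lay inside these Rab intervals except for the 3′UTR in replicate 2, where it lay just below. Frequent recurrence in 3′UTRs and rare recurrence in introns thus held over all genes as well.

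In all, 30 of 73 significant Rab clusters of replicate 1, or 41.1%, overlapped a significant cluster of replicate 2 (exact 95% interval 29.7% to 53.2%), where the background was 32.9% of 15990. From replicate 2 it was 33 of 121, or 27.3% (19.6% to 36.1%), where the background was 18.4%. The background lay inside the Rab interval for replicate 1 and below it for replicate 2. Of the 30, 29 lay in the 3′UTR, 1 in the 5′UTR and 0 in the CDS. Over all protein-coding genes, 5256 such clusters of replicate 1 were spread as 62.3% in the 3′UTR, 32.1% in the CDS and 2.78% in the 5′UTR. Overlapping clusters were joined where they shared or adjoined bases, which gave 27 shared Rab sites. There were 8 Rab genes with 1 shared site, 4 with 2, 1 with 3 (Rab14) and 2 with 4 (Rab2a and Rab18).

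At each shared site, the values below come from the cluster with the highest log2 fold change in each replicate, and the sites described in full are the 10 with the largest smaller log2 fold change of the replicates. The odds ratio compares the cluster's IP and SMInput reads with all other usable reads of both libraries, and its 95% interval is exact. The thresholds, the odds ratios and Fisher's exact test use the same reads. Ratios above 1, low p values and nearness of the replicates at these sites therefore follow in part from the choice of sites where both replicates passed, and the values describe the sites without testing them anew. Outside them the replicates could differ more, as at Rab8b chr9:66845664-66845733, where the log2 fold change was 3.49 in replicate 2 and at most 0.67 in the overlapping clusters of replicate 1. At the 27 shared sites the odds ratio intervals of the replicates overlapped. The log2 fold change was higher in replicate 1 at 12 of the 27, with a median gap of 0.64 and a largest gap of 2.14 at Rab28.

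**Figure D2:**
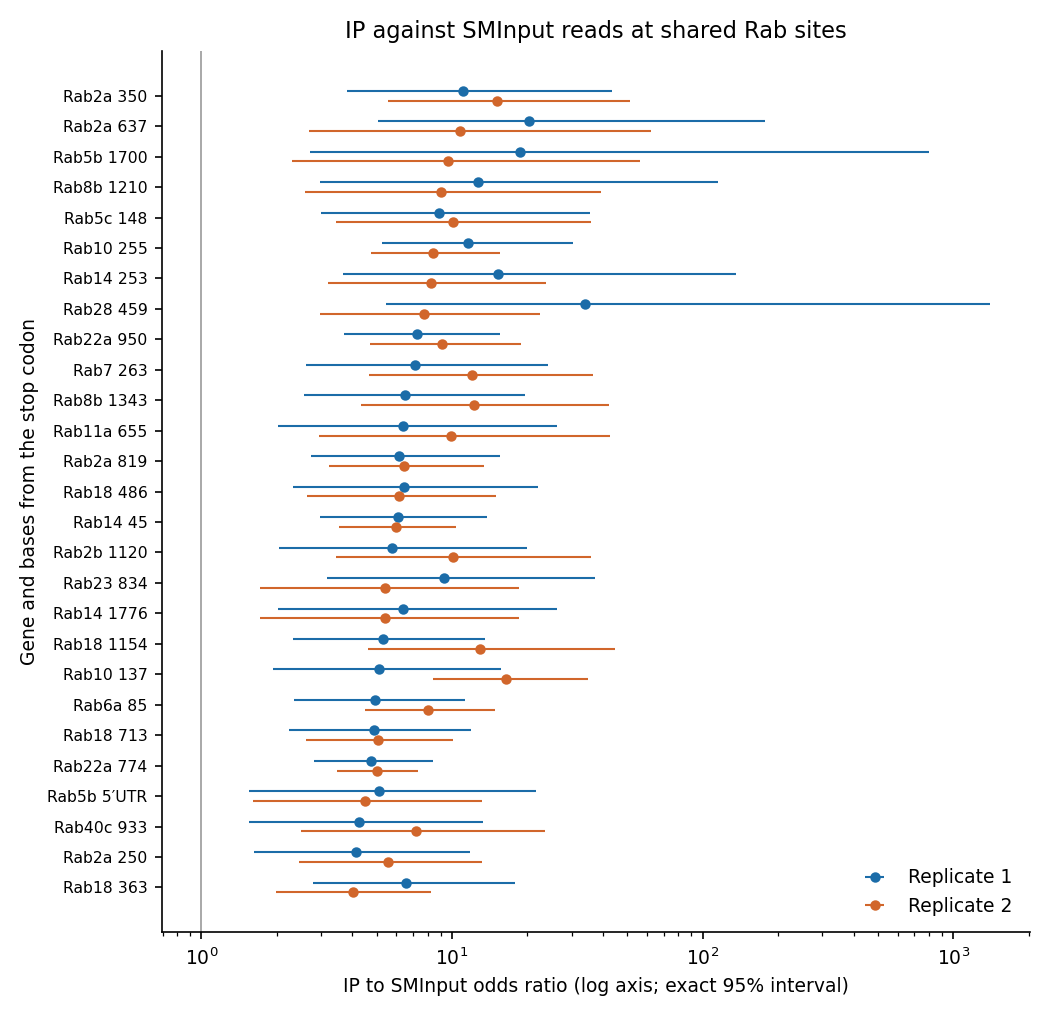
Odds ratio of IP to SMInput reads (log axis) with exact 95% intervals at each of the 27 shared Rab sites, by replicate; numbers beside gene names are bases from the stop codon. Both replicates passed the thresholds at each site by choice, and the lowest lower bound is 1.54.

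Among the 14 Golgi and early secretory Rab genes, 7 had significant clusters in both replicates and 4 had overlapping ones. These are 50% and 28.6% of the group, beside 21.9% and 9.33% of all protein-coding genes. Rab2a, which acts in transport between the endoplasmic reticulum and the Golgi, carried 4 shared sites within a 3′UTR of 1278 bases. Its leading site at chr4:8606816-8606884 on the plus strand, 350 bases past the stop codon, had 26 IP and 4 SMInput reads in replicate 1 and 21 and 5 in replicate 2. The log2 fold change there was 3.46 in replicate 1 and 3.92 in replicate 2, with −log10 P values of 7.53 and 11.8. The odds ratio was 11.0 (3.82 to 43.5) and 15.1 (5.55 to 51.3), with adjusted p of 2.60e-06 and 1.41e-08 by Fisher's exact test. This was the highest-ranked shared site of any Rab gene, and the replicates differed there by less than their intervals.

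A further Rab2a site at chr4:8607107-8607168 lay 637 bases past the stop codon. Replicate 1 had 24 IP and 2 SMInput reads there, with a log2 fold change of 4.35, a −log10 P value of 8.21 and an odds ratio of 20.4 (5.05 to 178). Replicate 2 had 9 and 3 reads, with a log2 fold change of 3.43, a −log10 P value of 3.91 and an odds ratio of 10.8 (2.7 to 62). Adjusted p was 6.15e-07 and 0.00202 by Fisher's exact test. The fold was higher in replicate 1, but the intervals overlapped widely and the shared bases numbered only 13. The other Rab2a sites, at chr4:8606722-8606778 and chr4:8607218-8607420, had log2 fold changes of 2.04 and 2.48, and of 2.62 and 2.68, in replicates 1 and 2. The Rab2a sites thus spread from 250 to 819 bases past the stop codon, or from 19.6% to 64.1% of its 3′UTR.

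Its paralog Rab2b, linked to the Golgi as well, had 1 shared site at chr14:52262552-52262635 on the minus strand, 1120 bases past the stop codon. Rab2b had 17 IP and 5 SMInput reads there in replicate 1 and 14 and 5 in replicate 2, with log2 fold changes of 2.53 and 3.33. Of 14 Rab numbers shared by more than 1 gene, Rab2 was the only number with a shared site in each of its genes. At Rab2b, 3 more 3′UTR clusters of replicate 1 and 3 of replicate 2 were significant without overlapping.

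Rab18, a regulator of lipid droplets and the endoplasmic reticulum, had 4 shared sites in the part of its 3′UTR nearest the stop codon. They lay at chr18:6788978-6789052, chr18:6789101-6789175, chr18:6789331-6789399 and chr18:6789758-6789854 on the plus strand, 363, 486, 713 and 1154 bases past the stop codon in a 3′UTR of 5777 bases. In that order, their log2 fold changes were 2.71, 2.69, 2.29 and 2.41 in replicate 1. In replicate 2 they were 2.01, 2.61, 2.35 and 3.70. At the middle sites the replicates differed by 0.07 and 0.05 in log2 fold change. At the nearest site to the stop codon replicate 1 was higher, by 0.70, and at the farthest replicate 2 was higher, by 1.29; there replicate 2 had 18 IP reads to 5 in SMInput and replicate 1 had 25 to 8. No significant Rab18 cluster lay in the remaining 3′UTR beyond these sites in replicate 1, and 1 did in replicate 2, at chr18:6789973-6790007.

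Rab6a, which serves retrograde transport from the Golgi, had its shared site at chr7:100639333-100639470 on the plus strand, 85 bases past the stop codon. It had 29 IP and 10 SMInput reads in replicate 1 and 40 and 18 in replicate 2, and log2 fold changes of 2.3 and 3.0. The next Rab6a cluster, which held the most IP reads of the gene, had 47 IP and 22 SMInput reads at chr7:100639695-100639804 in replicate 1 and 59 and 35 at chr7:100639689-100639768 in replicate 2. Its log2 fold change was 1.86 in replicate 1 and 2.60 in replicate 2, so only replicate 2 passed the threshold of 2, although the adjusted p was 1.79e-05 and 1.80e-15 by Fisher's exact test. Its paralog Rab6b, expressed mainly in neurons, had 1 significant 3′UTR cluster in replicate 2 alone, with 4 IP reads and 1 SMInput read.

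Rab1a and Rab1b, which act in transport from the endoplasmic reticulum to the Golgi, had many reads and low fold changes. The 3′UTR cluster of Rab1a with the most IP reads, at chr11:20225133-20225245 in replicate 1, had 40 IP and 29 SMInput reads and a log2 fold change of 1.23. In replicate 2 the matching cluster had 37 and 67 reads and a log2 fold change of 0.99. Rab1a had significant clusters in its CDS and 3′UTR in replicate 1 and in introns in replicate 2, and none overlapped. Rab1b had 0 significant clusters in replicate 1 and 3 in replicate 2, 2 of them in the 3′UTR, where the deepest had 44 IP and 38 SMInput reads and a log2 fold change of 2.06. High read numbers on Rab1a and Rab1b were thus not matched by high ratios to SMInput.

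Rab33b, a Golgi Rab with a part in autophagy, and Rab43, which acts at the Golgi, also had significant clusters in both replicates without overlap. Those of Rab33b lay in the CDS and 3′UTR in replicate 1 and in the 3′UTR in replicate 2. Those of Rab43 lay in the 3′UTR in replicate 1, and in the 3′UTR and introns in replicate 2. All Rab43 clusters also lie in the span of the same-strand gene Gm45140, so they cannot be assigned to Rab43 alone. Rab30, Rab34 and Rab39 had listed clusters but none significant, and Rab33a and Rab39b had none listed.

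By number, exocytosis and polarised transport had the most Rab genes without a call. Of its 13 genes, 11 had a listed cluster but 2 had a significant cluster in either replicate, Rab8b and Rab10, and both had shared sites. These are 15.4% of the group in each replicate, beside 26.1% and 36.8% of all protein-coding genes in replicates 1 and 2. With clusters in both replicates it was 15.4% beside 21.9%. Rab10, which acts in the delivery of vesicles to the plasma membrane, had a site at chr12:3249495-3249575 on the minus strand, 255 bases past the stop codon. It had 48 IP and 7 SMInput reads in replicate 1, with a log2 fold change of 3.54, a −log10 P value of 13.4 and an odds ratio of 11.6 (5.23 to 30.5). In replicate 2 it had 42 and 18 reads, 3.07, 18.3 and 8.40 (4.73 to 15.5) for the same quantities. Adjusted p was 3.69e-12 and 2.03e-13 by Fisher's exact test, and the deep reads made these intervals among the narrowest of the described sites.

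The neighbouring Rab10 site at chr12:3249600-3249706, 137 bases past the stop codon, differed more between the replicates. It had 18 IP and 6 SMInput reads in replicate 1, a log2 fold change of 2.35 and an odds ratio of 5.09 (1.93 to 15.7). In replicate 2 it had 50 and 11 reads, a log2 fold change of 4.03 and an odds ratio of 16.4 (8.41 to 34.9). The −log10 P value of 28.6 in replicate 2 was the highest of any Rab cluster. Rab10 thus had its sites together at the start of a 3′UTR of 2362 bases.

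Rab8b, which acts in exocytosis and in membrane delivery to cilia, had a site at chr9:66846499-66846526 on the minus strand, 1210 bases past the stop codon. Replicate 1 had 15 IP and 2 SMInput reads, a log2 fold change of 3.67, a −log10 P value of 4.7 and an odds ratio of 12.7 (2.96 to 115). Replicate 2 had 10 and 4 reads, a log2 fold change of 3.17, a −log10 P value of 4.01 and an odds ratio of 9.0 (2.60 to 39.3). Adjusted p was 0.000912 and 0.00167 by Fisher's exact test, and both replicates listed nearly the same 28 bases. A neighbouring Rab8b site at chr9:66846342-66846416 had 23 IP and 6 SMInput reads in replicate 1 and 17 and 5 in replicate 2, with log2 fold changes of 2.7 and 3.61.

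All 6 significant clusters of Rab8b in replicate 1 and all 7 in replicate 2 lay in the 3′UTR. Its paralog Rab8a, with a like role and a 3′UTR of 3770 bases against 4058 for Rab8b, had 14 listed clusters in replicate 1 and 5 in replicate 2, and 0 were significant. The Rab8a 3′UTR cluster with the most IP reads had 6 IP and 4 SMInput reads in replicate 1 and, at another position, 6 and 6 in replicate 2. Fewer reads were thus available on Rab8a, and whether its ratio differs from that of Rab8b was not tested.

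The Rab3 genes and Rab27a, which serve regulated secretion, had no call. Rab3a, Rab3b and Rab3d had listed clusters whose highest IP read numbers were 5 in replicate 1 and 7 in replicate 2, while Rab3c had none. Rab27a had 9 and 6 listed clusters, with at most 6 and 7 IP reads, and Rab27b had 3 and 1. Rab12, Rab13 and Rab26 also had listed clusters and none significant, and Rab37 had none listed. The only listed cluster of Rab26 also lies in the span of the same-strand gene Traf7. The tables hold only called clusters, so no upper limit can be given for genes without them. In replicate 1 no cluster of the Rab3 and Rab27 genes reached 7 IP reads, the fewest of a significant Rab cluster with 1 SMInput read. In replicate 2 the fewest was 4, which Rab3d, with 7 IP and 6 SMInput reads, and Rab27a, with 7 and 12, exceeded without a call; the −log10 P value of Rab3d was 1.95 at a log2 fold change of 2.07.

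Early endosome genes had a listed cluster in 7 of 7 cases, significant clusters in both replicates in 4, and shared sites in 3. The group shares were 100%, 57.1% and 42.9%, beside 66.4%, 21.9% and 9.33% of all protein-coding genes. Rab5b and Rab5c belong to the Rab5 proteins, which drive fusion of early endosomes. The Rab5b site at chr10:128677799-128677867 on the minus strand, 1700 bases past the stop codon, had 11 IP reads and 1 SMInput read in replicate 1 and 8 and 3 in replicate 2. Its log2 fold change was 4.22 and 3.26, its −log10 P value 3.84 and 3.36, and its odds ratio 18.7 (2.71 to 803) and 9.60 (2.3 to 56.2). Adjusted p was 0.00489 and 0.00565 by Fisher's exact test, and the wide intervals reflect the few SMInput reads.

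Rab5b also carried the only shared Rab site outside a 3′UTR, in its 5′UTR at chr10:128686885-128687009. There it had 12 IP and 4 SMInput reads in replicate 1 and 10 and 8 in replicate 2, with log2 fold changes of 2.35 and 2.17. Its adjusted p of 0.0517 in replicate 1 by Fisher's exact test was the only value above 0.05 at a shared Rab site, and it was 0.0172 in replicate 2. A deeper Rab5b cluster at chr10:128678147-128678236 had 26 IP and 6 SMInput reads and a log2 fold change of 3.96 in replicate 2, but it overlapped only a cluster with a log2 fold change of 1.93 in replicate 1.

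Rab5c had its site at chr11:100715869-100715936 on the minus strand, 148 bases past the stop codon. It had 21 IP and 4 SMInput reads in replicate 1 and 14 and 5 in replicate 2. The log2 fold change was 3.15 and 3.33, the −log10 P value 5.70 in each, and the odds ratio 8.90 (3.0 to 35.7) and 10.1 (3.43 to 35.8). Adjusted p was 0.000118 and 5.57e-05 by Fisher's exact test. The replicates were closest here among the 10 described sites, with a gap of 0.18 in log2 fold change. Rab5a, the remaining Rab5 gene, had significant clusters in both replicates in introns alone, and its 3′UTR cluster with the most IP reads had 13 IP and 7 SMInput reads in replicate 1 and, at another position, 7 and 8 in replicate 2.

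Rab22a, which links early endosomes to recycling, had 2 neighbouring sites with many reads. The site at chr2:173701975-173702157 on the plus strand, 950 bases past the stop codon, had 47 IP and 11 SMInput reads in replicate 1, a log2 fold change of 2.86, a −log10 P value of 11.0 and an odds ratio of 7.25 (3.70 to 15.5). In replicate 2 it had 33 and 13 reads, with 3.19, 15.1 and 9.14 (4.68 to 18.9) for the same quantities. Adjusted p was 1.63e-09 and 5.17e-11 by Fisher's exact test. The leading clusters of the replicates lay at opposite ends of this site, and other significant clusters joined them. The site before it, at chr2:173701832-173701948, had 56 IP and 20 SMInput reads in replicate 1 and 74 and 53 in replicate 2, the most IP reads of any shared Rab site in each. Its log2 fold change was 2.25 and 2.33, close in the replicates and lower than at its neighbour.

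The other early endosome genes had weaker or no calls. Rab20 had 1 significant cluster in an intron, and Rab21, which carries integrins, had 1 in an intron and 1 in the CDS, all in replicate 2 alone. Rab21 also had a 3′UTR cluster just under the threshold in replicate 1, with 16 IP and 7 SMInput reads and a log2 fold change of 1.95, while its deepest 3′UTR cluster in replicate 2, at another position, had a log2 fold change of 0.30. Rab31, which acts between the Golgi and endosomes, had 100 listed clusters in replicate 1 and 46 in replicate 2, and 0 significant. A large number of listed clusters thus did not go with a call at Rab31.

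The recycling group of 9 genes had 3 with significant clusters in both replicates and 2 with shared sites. These are 33.3% and 22.2% of the group, beside 21.9% and 9.33% of all protein-coding genes. Rab14, which moves cargo between the Golgi and endosomes, had 3 sites. The highest-ranked lay at chr2:35181986-35182055 on the minus strand, 253 bases past the stop codon, with 18 IP and 2 SMInput reads in replicate 1 and 16 and 7 in replicate 2. Its log2 fold change was 3.93 and 3.04, its −log10 P value 5.85 and 5.91, and its odds ratio 15.3 (3.65 to 136) and 8.23 (3.20 to 23.7). Adjusted p was 8.71e-05 and 3.62e-05 by Fisher's exact test, so the support was alike although the fold was higher in replicate 1.

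The Rab14 site nearest a stop codon of all shared 3′UTR sites, at chr2:35182170-35182287, lay 45 bases past it. It had 36 IP and 10 SMInput reads in replicate 1 and 40 and 24 in replicate 2, with log2 fold changes of 2.61 and 2.59. The Rab14 site at chr2:35180431-35180564 lay 1776 bases past the stop codon, the farthest of the shared sites, with log2 fold changes of 2.67 and 2.43. Rab14 therefore had sites at both ends of a 3′UTR of 2068 bases.

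Rab11a, a marker of recycling endosomes, had its site at chr9:64716125-64716270 on the minus strand, 655 bases past the stop codon. It had 15 IP and 4 SMInput reads in replicate 1 and 11 and 4 in replicate 2, with log2 fold changes of 2.67 and 3.31. Its paralog Rab11b had the deepest 3′UTR cluster of any Rab gene and no shared site. That cluster, at chr17:33747549-33747654 in replicate 1, had 59 IP and 40 SMInput reads and a log2 fold change of 1.32. In replicate 2, at chr17:33747546-33747662, it had 97 and 92 reads and 1.92. Its adjusted p was 0.00031 and 7.39e-17 by Fisher's exact test, so IP reads were in excess in both replicates while the fold stayed under the threshold. The significant Rab11b clusters lay in introns in both replicates.

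Of the other recycling genes, Rab35 had a significant 3′UTR cluster in replicate 1 alone, with 13 IP and 3 SMInput reads. It overlapped a listed cluster of replicate 2 with a log2 fold change of 2.07 that did not pass on its P value. Rab4a had an intron cluster in replicate 1 alone and Rab4b had 2 intron clusters in replicate 2 alone, and both genes share their clusters with another same-strand gene, Gm20388 and Gm21983. Rab15 had 1 listed cluster, and Rab17 and Rab25, which are typical of epithelia, had none.

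Rab7, which directs late endosomes and autophagosomes to lysosomes, was the only late endosome gene of 5 with significant clusters in both replicates. This is 20% of the group, beside 21.9% of all protein-coding genes. The shared site of Rab7 lay at chr6:88000124-88000226 on the minus strand, 263 bases past the stop codon. It had 21 IP and 5 SMInput reads in replicate 1 and 20 and 6 in replicate 2, with log2 fold changes of 2.83 and 3.59. The −log10 P value was 4.98 and 10.3, the odds ratio 7.12 (2.61 to 24.2) and 12.0 (4.65 to 36.5), and the adjusted p 0.000598 and 1.54e-07 by Fisher's exact test. The IP reads were nearly equal in the replicates, and replicate 2 had the larger SMInput library. Rab9, which returns cargo from late endosomes to the Golgi, had a 5′UTR cluster in replicate 1 alone with 9 IP and 2 SMInput reads. Rab7b and Rab24 had listed clusters and none significant, and Rab9b had none listed.

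Both cilium genes had a shared site, where 9.33% of all protein-coding genes had overlapping significant clusters. Rab28, which is tied to intraflagellar transport, had the highest log2 fold change of any Rab cluster in replicate 1. Its site at chr5:41625305-41625519 on the minus strand, 459 bases past the stop codon, had 20 IP reads and 1 SMInput read in replicate 1, a log2 fold change of 5.08, a −log10 P value of 7.48 and an odds ratio of 33.9 (5.43 to 1406). In replicate 2 it had 15 and 7 reads, a log2 fold change of 2.95, a −log10 P value of 5.40 and an odds ratio of 7.71 (2.96 to 22.4). Adjusted p was 2.88e-06 and 0.000103 by Fisher's exact test. The replicates differed more here than at any other shared Rab site, yet their intervals overlapped, since the value of replicate 1 rests on 1 SMInput read.

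Rab23, a negative regulator of Hedgehog signalling, had its site at chr1:33740157-33740290 on the plus strand, 834 bases past the stop codon. It had 22 IP and 4 SMInput reads in replicate 1 and 9 and 6 in replicate 2, with log2 fold changes of 3.22 and 2.43. Rab23 was also the shared-site gene lost when at least 10 IP reads were required, which left 14 of the 15.

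Among the remaining genes, Rab40c, part of a ubiquitin ligase, had a shared site at chr17:25882625-25882772 on the minus strand, 933 bases past the stop codon. It had 15 IP and 6 SMInput reads in replicate 1 and 12 and 6 in replicate 2, with log2 fold changes of 2.08 and 2.85, and the clusters shared 12 bases. Its paralog Rab40b had no listed cluster. Rab36 had significant clusters in introns in replicate 1 and in the 3′UTR in replicate 2, which did not overlap. Rab19, Rab42 and Rab44 had no listed cluster, nor did Rab29, Rab32 and Rab38 of lysosome-related organelles, of which Rab32 and Rab38 serve pigment granules. In all, 14 Rab genes had no listed cluster in either replicate.

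The 17 shared Rab sites outside the 10 described in full had log2 fold changes from 2.04 to 3.22 in replicate 1 and from 2.01 to 4.03 in replicate 2. Their odds ratios ran from 4.12 to 9.33 in replicate 1 and from 4.02 to 16.4 in replicate 2. Across all 27 sites the median number of IP reads was 21 in replicate 1 and 17 in replicate 2. By Fisher's exact test, 26 of the 27 shared Rab sites had an adjusted p below 0.05 in both replicates, which repeats the choice of sites on P values from the same reads. These tests compare the libraries of each replicate, not conditions. With a replicate block, which keeps IP and SMInput paired within each replicate, the median Mantel-Haenszel odds ratio over the shared Rab sites was 7.49, near the 7.94 of the geometric mean of the replicates.

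The read depth on the Rab genes differed with the calls. Taking for each gene the largest SMInput read number of any of its clusters, the median over genes with a shared site was 16 in replicate 1 and 24 in replicate 2. For the 16 Rab genes with listed clusters and none significant, the medians were 4 and 9.5. Their longest 3′UTRs had a median of 2244.5 bases, against 1954 for the 15 genes with shared sites and 784.5 for the 14 with no listed cluster. The 6 Rab genes with significant clusters in both replicates that did not overlap had medians of 7 and 12.5, the 5 called in replicate 2 alone 7 and 21, and the 3 called in replicate 1 alone 3 and 5. In each replicate this depth was thus highest for genes with shared sites, but the genes called in replicate 1 alone had less than those never called. The part of depth in the calls was not tested.

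Of the 26 shared sites in 3′UTRs, 14 lay in the 25% of the 3′UTR nearest the stop codon, 6 between 25% and 50%, 5 between 50% and 75%, and 1 beyond 75%. The same parts held 739, 679, 631 and 401 of 2450 shared sites with their middle in a 3′UTR over all protein-coding genes. The median site lay 646 bases past the stop codon, after 19.9% of the 3′UTR, against 593.5 bases and 42.4% for all protein-coding genes. Within 500 bases lay 12 of the 26, or 46.2%, beside 43.7%, so the distance in bases was near that of all genes. The 14 sites came from 8 genes, Rab18 giving 4 of them, and sites of the same gene are not independent. Positions are counted on the annotated 3′UTR that holds the site, and the isoforms used in the testis were not measured.

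**Figure D3:**
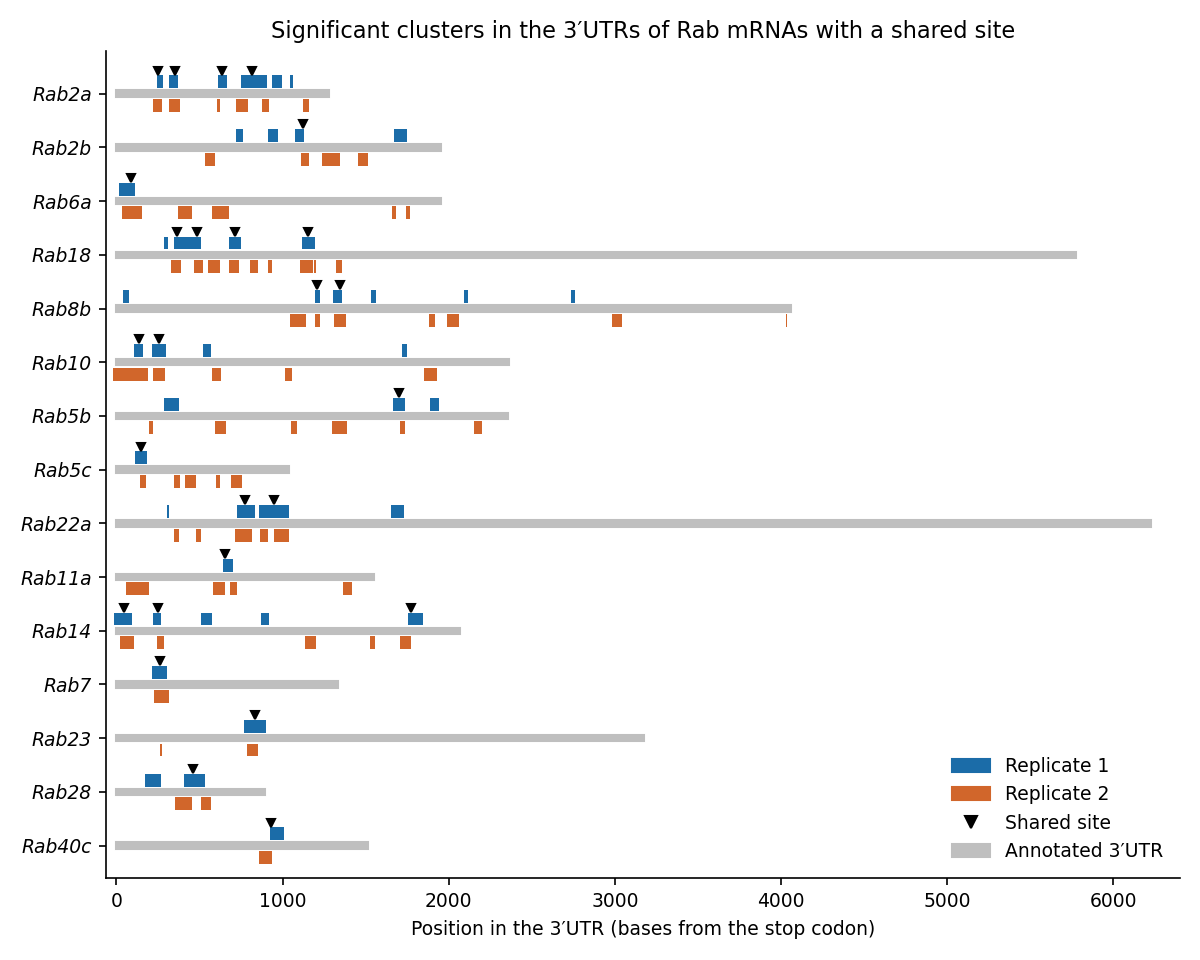
Significant 3′UTR clusters of the 15 Rab genes with shared sites, by bases from the stop codon, with replicate 1 above and replicate 2 below the annotated 3′UTR and triangles at shared sites. Of the 26 sites shown, 12 lie within 500 bases of the stop codon.

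The bases shared by both replicates show where the clusters met, and the following are 30 bases centred on them at 9 of the 10 sites described in full, in Rab2a, Rab5b, Rab8b, Rab5c, Rab10, Rab14, Rab28, Rab22a and Rab7. All are given 5′ to 3′ on the strand of the mRNA in GRCm38/mm10, and none of these 30-base stretches holds a motif searched here. At the remaining site, the leading one of Rab2a, the 30 bases centred on the shared ones, chr4:8606830-8606859, hold no motif either. It holds GGACT outside the shared bases, in the significant cluster of replicate 2 alone, and this stretch is shown with the motif matches.
Rab2a chr4:8607102-8607131 plus strand: gacatcgttaacgagcatgttcatcttttc
Rab5b chr10:128677799-128677828 minus strand: cttgggctcagagactgacttgtgttccag
Rab8b chr9:66846497-66846526 minus strand: agacctagccctgtttgcttaggtttgtca
Rab5c chr11:100715876-100715905 minus strand: ctaggccggagggagttattccacctgcac
Rab10 chr12:3249520-3249549 minus strand: cttgctcactcagccctgcacttcagttgt
Rab14 chr2:35182001-35182030 minus strand: cccctttgattgtccttgtgataggtttgt
Rab28 chr5:41625426-41625455 minus strand: tgaagctgctccaagctttgatgatcattt
Rab22a chr2:173702098-173702127 plus strand: gcttagctcacagcttccttccttccttct
Rab7 chr6:88000158-88000187 minus strand: tgcccgcctcgtgggccctgtgtatggcag
The median base content of the 27 shared Rab sites was 34.4% T, 21.7% A, 21.4% C and 19.3% G. At the 2532 shared 3′UTR sites of all protein-coding genes it was 32.8% T, 21.2% A, 23.7% C and 20.8% G, close to the Rab values.

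GAACA was searched on the mRNA strand together with AAACC and with a form of the m6A consensus, GGACT, in windows of 100 bases at the centres of significant 3′UTR clusters. GAACA was in 1 of 55 Rab windows in replicate 1, or 1.82%, and in 3 of 77 in replicate 2, or 3.90%, against 8.29% and 7.73% of the windows of all protein-coding genes. AAACC was in 0 of 55 Rab windows in replicate 1, with an exact 95% interval of 0% to 6.49%, and in 10 of 77 in replicate 2, or 13.0% (6.41% to 22.6%). Over all genes AAACC was in 8.78% and 8.46% of windows, so the Rab windows lay below this in replicate 1 and above it in replicate 2. GGACT was in 7.27% and 9.09% of Rab windows, against 10.4% and 9.77% over all genes. At least 1 of the motifs was in 9.09% of Rab windows in replicate 1 (3.02% to 19.95%) and in 23.4% in replicate 2 (14.5% to 34.4%), against 25.3% and 23.9% over all genes. The lower share of Rab windows with a motif in replicate 1 was not seen in replicate 2. A match describes the letters in a window and is not a measured binding site.

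A shared site joins the clusters of both replicates. Inside the shared Rab sites, GGACT occurred in 5 of 27, GAACA in 2, in Rab40c and Rab18, and AAACC in 0. The matches of Rab2a, Rab11a, Rab10, Rab5b (in the 5′UTR) and Rab40c are shown with the motif in capitals. Rab11a held GGACT at 2 positions, both shown. Rab40c held it at 2, of which the match in chr17:25882721-25882750 is left out, as it overlaps the bases shown for GAACA. Of the matches shown, only the GGACT of Rab40c lay wholly in bases shared by both replicates. The Rab11a match in chr9:64716156-64716185 lay partly in them. All others shown lay in the significant cluster of replicate 2 alone.
Rab2a chr4:8606862-8606891 plus strand: tttaatattataGGACTgtcctcaaaaagt
Rab11a chr9:64716223-64716252 minus strand: aataaacacaaaGGACTgttatggtttgca
Rab11a chr9:64716156-64716185 minus strand: tggtaggctagtGGACTtctgtctgaggtg
Rab10 chr12:3249610-3249639 minus strand: gtgactgcttgcGGACTattataattttct
Rab5b chr10:128686992-128687021 minus strand: tttttctttacaGGACTgttgaggcctgga
Rab40c chr17:25882688-25882717 minus strand: ttgtgaagccatGGACTgttcccccacaat
Rab40c chr17:25882742-25882771 minus strand: tgacactctctgGAACAccaagcccctcct
Thus 6 of the 27 shared Rab sites held any of these letters, and the others held none. The sites differ in width, and the share over the shared sites of all protein-coding genes is not given here. These counts therefore describe the Rab sites alone.

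The proteins that load, switch and read Rab GTPases form another list of 115 genes, and 46 of them, or 40%, had significant clusters in both replicates, against 35.6% of the Rab genes and 21.9% of all protein-coding genes. Overlapping clusters were found for 15 of these 115 genes, or 13%, against 25.4% of the Rab genes and 9.33% of all genes. One was Rabif, placed by the list in a class of 8 labelled prenylation and recycling, a label that does not give its role. Others were Rab3il1, Rgp1, Ccz1 and St5 among 31 GEFs. Among 40 GAPs they were Rabgap1l, Evi5l, Usp6nl, Tbc1d1, Tbc1d5, Tbc1d14 and Tbc1d19. The rest were Rab11fip2 and Appl1 among 31 effectors, and Rabl3 among 5 Rab-like genes. Rgp1, part of the exchange factor of Rab6, had its leading cluster at chr4:43585620-43585680 in replicate 1, with 39 IP and 7 SMInput reads and a log2 fold change of 3.24. In replicate 2 it lay at chr4:43585623-43585674, with 25 and 12 reads and 2.91. Ric1, the partner of Rgp1, had 0 significant clusters in replicate 1 and 1 in replicate 2. Of the exchange factor of Rab7, Ccz1 had overlapping clusters, Mon1a had 2 significant intron clusters in replicate 1 and 0 in replicate 2, and Mon1b had 0 in both. Overlapping clusters were thus found on Rgp1 and Ccz1 and not on these partners.

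Listed clusters matched the labelled tissue. All 10 germ cell markers had listed clusters, with 225 in replicate 1 and 216 in replicate 2. Prm1, a protamine gene of spermatids, had the marker cluster with the most IP reads, 445 in replicate 1 and 375 in replicate 2. All 8 markers of testis somatic cells had listed clusters as well, with 141 and 118, while 0 of 4 genes of other tissues had any. Listed clusters need no excess over SMInput, and significant ones were found on 4 germ cell markers and 2 somatic markers in replicate 1 and on 5 and 3 in replicate 2. Over all protein-coding genes, 66.4% had a listed cluster in either replicate. A significant cluster was found for 26.1% of them in replicate 1 and 36.8% in replicate 2. The cell type behind each Rab cluster was not measured. The Rab pseudogenes Rab7-ps1, Rab5a-ps, Rab11b-ps2 and Rab9b-ps1 had 0 listed clusters, so no cluster was listed on these near copies of Rab7, Rab5a, Rab11b and Rab9b.

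The number of Rab genes with shared sites depended on the thresholds. With 3 in place of 2 as the minimum of both values, it was 6, namely Rab2a, Rab5b, Rab5c, Rab8b, Rab10 and Rab14. With a minimum of 3 for the log2 fold change and 5 for −log10 P it was 4, namely Rab2a, Rab5c, Rab10 and Rab14. Rab22a, with −log10 P values of 11.0 and 15.1 at its leading site, was left out for its fold. Shares of all protein-coding genes at these stricter thresholds are not given here.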

How the data were processed

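Testis IGF2BP3 eCLIP-seq comprised 2 replicates of 1 IP and 1 SMInput library, with no anti-IgG library among the samples. The authors trimmed reads with cutadapt, removed ribosomal RNA with Bowtie2, aligned to mm10 with STAR, removed duplicates by molecular identifiers and called clusters with Clipper. The deposited −log10 P values compare IP with SMInput reads of a cluster, by Fisher's exact test where a read number is below 5 and a chi-square test otherwise. The deposited log2 values are ratios of IP to SMInput reads, each relative to its library.

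Usable reads per library and reads per cluster were recovered as the whole numbers that return the listed values, for 98.9% of replicate 1 and 99.4% of replicate 2 clusters listed inside the ends of the scale. Depth limits precision to counting error, and reads of 1 cluster are not independent molecules where duplicates remain. Clusters went to genes and regions by their centre, in the order 3′UTR, CDS, 5′UTR, non-coding exon, intron of basic GENCODE M21 transcripts. IP and SMInput reads were compared by a two-sided Fisher's exact test with Benjamini-Hochberg adjustment over all clusters of a replicate, with the exact conditional odds ratio interval. Python 3.11.15, pandas 2.3.3, NumPy 2.4.6, SciPy 1.17.1, pysam 0.24.0 and matplotlib 3.10.9 were used, and the statistics were tested on simulated data. Named were all Rab genes with significant clusters, by region, their paralogs, the genes with no listed cluster, and in full the 10 sites with the largest smaller log2 fold change of the replicates. Genes outside this rule were chosen after their values were seen, including Rab3d, Rab27a and Rab31 for their read numbers, and Rgp1, Ric1, Ccz1, Mon1a and Mon1b. The deep clusters described for Rab1a, Rab6a, Rab11b and Rab21 were likewise chosen for their read numbers, after these were seen. The Rab genes and the role, machinery and marker lists were chosen with earlier results of these data known; Zfyve20 of the machinery list and Rab41 were not found as protein-coding genes. Alternatives were other thresholds, a read minimum, other rules for assigning clusters to genes, regions and sites, each replicate alone, the replicate block and other motif windows.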

Additional observations from a re-analysis of the deposited data

How the results depend on the processing

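Of 44 alternatives tried, 24 left counts within 1.5 times, shares within their intervals and odds ratios on the same side of 1, and 20 moved the Rab value further. With 3 as the minimum of the log2 fold change and of −log10 P, 9 Rab genes had significant clusters in both replicates and 6 had overlapping ones, with 14 and 31 significant clusters in replicates 1 and 2, with 3′UTR shares of 92.9% and 90.3%. With a log2 fold change minimum of 3 and a −log10 P minimum of 5 together, these values were 5, 4, 8, 20, 100% and 100%. Stricter thresholds leave fewer clusters by construction, and the genes kept can only be among the 21 and 15. With at least 10 IP reads, replicates 1 and 2 had 54 and 64 significant clusters, with 3′UTR shares of 88.9% and 95.3%. Rab genes with significant clusters in both replicates fell to 14 from 21, without Rab23 and all 6 genes whose clusters did not overlap. With clusters given to the closest annotated gene start, whatever its strand, 17 Rab genes had significant clusters in both replicates, among them Rab3c, Rab15 and Rab29, which otherwise had no significant cluster. By this rule 9 Rab genes had overlapping clusters, of which 7 were among the 15 and the others were Rab29 and Rab33b. Any motif was in 1.82% and 10.4% of 3′UTR windows of 50 bases. It was in 23.6% and 48.1% of windows of 200 bases, as longer windows hold more letters. Values of all protein-coding genes under these settings are not given here. The changes in counts and 3′UTR shares therefore describe the Rab genes alone.

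Each replicate alone gave 24 to 26 Rab genes with a significant cluster, against 21 with both, and could not give fewer. With a replicate block, which keeps IP and SMInput paired, the median odds ratio at shared Rab sites was 7.49, against 7.94.

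Depth limits these results. Significant Rab clusters had a median of 15 IP reads in replicate 1 and 10 in replicate 2, so a few reads decide many calls, most of all in introns. The SMInput library of replicate 2 was the largest, and 20 of 38 intron clusters of that replicate rest on 1 SMInput read. Genes with no listed cluster have no value. The libraries came from wild type testes alone, so no conditions were compared.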
